A study of Mus musculus with 2 samples.

Results

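Classical monocytes are the bone marrow-derived blood monocytes that carry high Ly6C, the surface protein encoded by Ly6c2, and the chemokine receptor CCR2. CCR2 ligands draw them out of the marrow and into injured tissue, where they can become macrophages, in part with loss of Ly6C and gain of complement C1q, or lose Ly6C to become the patrolling, non-classical monocytes of the vessel lumen. In the infarcted heart they are the early recruited arm of the CCR2+ compartment, apart from resident macrophages that carry LYVE-1, a receptor for hyaluronan.

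The cells described here are the Ly6c2-high classical monocytes of the mouse heart after neonatal myocardial infarction (MI). They were chosen by a rule on unique molecular identifier (UMI) counts, each UMI being 1 captured RNA molecule. A barcode was a member if it had at least 1000 detected genes and at most 10% mitochondrial UMIs, at least 5 Ly6c2, 3 Ccr2 and 2 Csf1r UMIs, and under 10 C1qa, C1qb and C1qc UMIs per 10000. It also had to have under 3 UMIs each of Cd209a, Siglech, Cd79a and the sum of Xcr1 and Clec9a, and under 2 of Cd3e, which mark dendritic, B and T cells. The rule found 405 members among 10998 deposited barcodes, of which 6149 were within the limits on genes and mitochondrial UMIs.

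The study holds 2 single-cell libraries of live CD45+ cells sorted from digested heart ventricles, with 1 library per genotype. MI was made on postnatal day 2 by ligation, and hearts were taken 7 days later, at 9 days of age (P2MI7dpi). The WT library pooled 5 hearts. The Lyve1 KO library pooled 5 hearts of mice with a global deletion (Lyve1-/-), so the gene was absent from lymphatic endothelium as well as from macrophages. No uninjured heart was analysed here. The hearts of a pool were not told apart here, so each library is 1 sample. Because each genotype is 1 library, the differences below have no replicate check and no test across genotypes was made, and every interval is a 95% interval for counting error only.

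The WT library gave 185 members with 4687794 UMIs, a median of 24537 per cell (6918 to 59507). The Lyve1 KO library gave 220 members with 6019027 UMIs, a median of 26687 per cell (9152 to 90738). Members of both libraries were therefore sequenced to a like depth, and their median number of detected genes was 4833 and 4924.5. Mitochondrial RNA took a median of 1.49% and 1.44% of their UMIs. The libraries shared 9 barcodes, none of them a member.

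The gate for Ly6c2 depended on telling it from Ly6c1, an endothelial gene of the same cluster. The 393 coding bases of the 2 genes are 97.7% identical in the GENCODE vM21 annotation of GRCm38, with 9 differing bases. Ly6c2 lies on the minus strand at chr15:75108158-75111970 and Ly6c1 on the minus strand at chr15:75044018-75048830. Coding bases 1 to 120, read 5′ to 3′, hold 6 of the 9 differences and are shown because a read of the 5′ end of the coding part can name either gene only through them. Capitals mark the bases that differ. These bases span introns, at chr15:75110578-75111667 for Ly6c2 and chr15:75047420-75048511 for Ly6c1.
Ly6c2: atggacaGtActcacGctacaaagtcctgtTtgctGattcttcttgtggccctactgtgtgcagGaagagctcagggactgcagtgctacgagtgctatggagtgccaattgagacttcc
Ly6c1: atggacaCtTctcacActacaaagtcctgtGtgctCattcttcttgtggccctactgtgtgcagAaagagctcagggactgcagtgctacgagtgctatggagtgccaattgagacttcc
Members held 6406 Ly6c2 UMIs in WT and 6989 in Lyve1 KO, but 0 and 1 Ly6c1 UMIs. The UMIs that met the rule were thus counted to Ly6c2 alone, while reads matching both genes equally could not be placed by the counting.

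The values that chose the members were spread well beyond their limits. A WT member had 26 Ly6c2 UMIs at the median (5 to 255), and a Lyve1 KO member had 23 (5 to 150). Just inside the limit, 8 WT and 16 Lyve1 KO members had exactly 5 Ly6c2 UMIs. Just outside it, 8 and 12 barcodes that met every other part of the rule had 4. In all, 148 WT and 206 Lyve1 KO barcodes missed the rule for Ly6c2 alone, so the members are the upper part of a continuous range of Ccr2- and Csf1r-expressing cells. The median was 26 Ccr2 UMIs in WT and 26.5 in Lyve1 KO, and 14 and 15 Csf1r UMIs. The C1q limit removed 17 and 15 barcodes.

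Genes that the rule did not use set the members apart from their neighbours in the way the name describes, as a description, since the groups compared were chosen from the same counts. Levels are given as CPM, the UMIs of a gene per 1000000 UMIs summed over the cells of a library. Versican (Vcan), a matrix proteoglycan of classical monocytes, was at 403 CPM in WT and 287 in Lyve1 KO members. In non-classical monocytes, chosen by Ace and Treml4 with under 3 Ly6c2 UMIs (240 WT and 283 Lyve1 KO cells), it was at 12.8 and 14.1 CPM. Members therefore held 31.6-fold and 20.4-fold more Vcan. F13a1, the A subunit of coagulation factor XIII, was 29.5-fold and 18.1-fold higher in members than in non-classical monocytes.

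Not all of the usual markers separated members from every neighbour. Plac8 was at 2923 and 2981 CPM in members, only 1.19-fold and 1.23-fold above non-classical monocytes, but 10.2-fold and 9.90-fold above CCR2+ macrophages (at least 3 Ccr2 UMIs with C1q, 194 and 120 cells). Haptoglobin (Hp) was at 1128 and 1106 CPM, 12.9-fold and 13.2-fold above CCR2+ macrophages but 0.628 and 0.562 times the level in neutrophils (chosen by at least 100 S100a8 and S100a9 UMIs per 10000 and under 2 Csf1r UMIs). F13a1 was 0.394 and 0.304 times its level in CCR2- macrophages, and it was 1.01-fold and 1.28-fold that of CCR2+ macrophages. Chil3, often listed with Ly6C-high monocytes, was low, at 37.8 and 45.9 CPM. The genes on the far side of the borders were those of the neighbours. Ace was 73.8 and 96.0 CPM in members against 802 and 907 in non-classical monocytes, which were themselves chosen by it. Cd300e, not used for that choice, was at 1.92 and 1.16 CPM in members against 126 and 104. Retnla was at 0 and 0.166 CPM in members against 1214 and 3253 in CCR2+ macrophages.

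**Figure D1:**
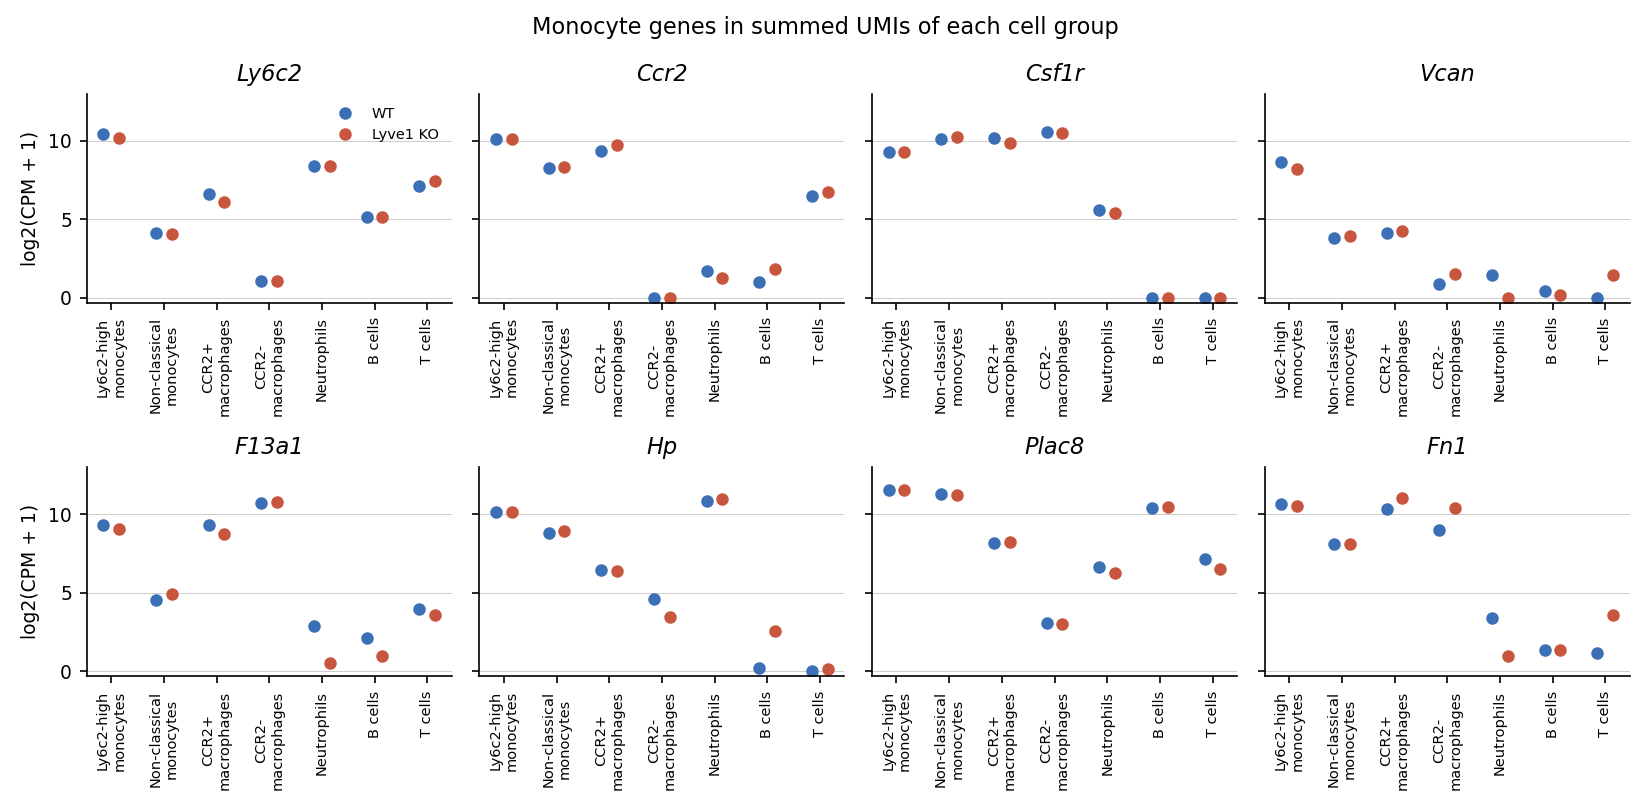
Levels of 8 monocyte genes, as log2(CPM + 1) of UMIs summed over the cells of each group, in Ly6c2-high monocytes and 6 comparison groups (x axis); blue points are the WT library and red points the Lyve1 KO library, 1 value each. Ly6c2, Ccr2 and Csf1r were used to choose the members; Vcan was far higher in members than in any other group, whereas Plac8 was near its member level in non-classical monocytes and Hp was higher in neutrophils.

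Members were a larger share of the Lyve1 KO library. They were 185 of 3380 barcodes within the limits in WT, or 5.47% (Clopper-Pearson, 4.73 to 6.29), and 220 of 2769 in Lyve1 KO, or 7.94% (6.96 to 9.02). The difference was 2.47 percentage points (Newcombe, 1.22 to 3.76). Non-classical monocytes were also a larger share in Lyve1 KO, at 7.10% and 10.2%. CCR2+ macrophages were a smaller share, at 5.74% and 4.33%, and CCR2- macrophages (C1q with no Ccr2 UMI) were 31.4% and 16.2% of the barcodes. With CCR2- macrophages left out of the total, members were 7.98% and 9.48%, a difference of 1.51 points with an interval that includes 0 (-0.121 to 3.14).

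The pools held hearts of both sexes, and cells were sorted into female and male by Xist and Y-linked UMIs. Among female cells, members were 81 of 921 (8.79%, 7.05 to 10.8) in WT and 89 of 908 (9.80%, 7.95 to 11.9) in Lyve1 KO, a difference of 1.01 points (-1.67 to 3.69). Among male cells they were 86 of 1875 (4.59%, 3.69 to 5.63) and 109 of 1370 (7.96%, 6.58 to 9.52), a difference of 3.37 points (1.69 to 5.14). The lowest of the 4 shares was thus that of WT male cells. With at least 10 Ly6c2 UMIs the difference was 1.68 points (0.539 to 2.86), and with a C1q sum under 5 per 10000 it was 2.48. When every barcode was thinned to 5800 UMIs before the rule, which makes its limits stricter and leaves out shallower barcodes, 76 of 2830 and 82 of 2502 barcodes met it, and the difference was 0.592 points (-0.322 to 1.53). Sorting and digestion set all of these shares, which say nothing of cell numbers per heart.

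**Figure D2:**
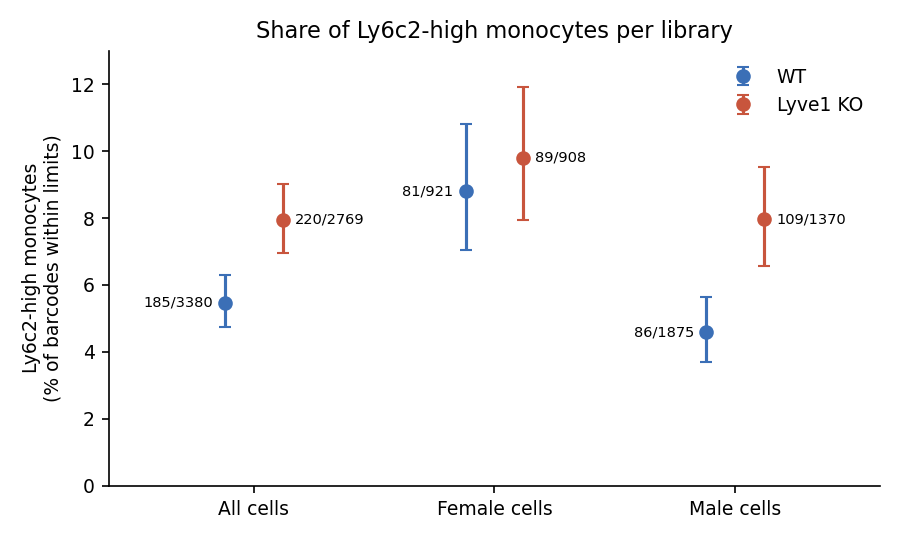
Ly6c2-high monocytes as a percentage of barcodes within the cell limits (y axis) for all, female and male cells; points are the WT (blue) and Lyve1 KO (red) library, bars are 95% Clopper-Pearson intervals for counting error, and numbers are members over barcodes. The share was 5.47% and 7.94% over all cells, with WT male cells lowest at 4.59%.

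The deleted gene was barely present in these cells. No Lyve1 UMI (chr7:110850607-110863239, minus strand) was found in any of the 185 WT members, which allows a share of cells with a UMI of up to 1.62%. The Lyve1 KO members held 26 Lyve1 UMIs in 20 cells. The CCR2- macrophages carried the contrast that the labels give, with 571 CPM in WT and 22.6 CPM in Lyve1 KO. At a fixed depth of 17700 UMIs, 5.37% of Lyve1 KO members had a Lyve1 UMI against 8.12% of Lyve1 KO B and T cells. Those lymphocytes should lack it, and the member share was no higher than theirs. This low signal was itself higher in Lyve1 KO than in WT in several groups. B cells held 0.347 and 5.50 CPM in WT and Lyve1 KO, T cells 0.870 and 8.37, and non-classical monocytes 0.304 and 7.69. Neutrophils held 3.43 and 3.37 CPM. The source of this signal was not tested. Cd44, the hyaluronan receptor that monocytes do use, was at 1006 CPM in both libraries.

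Across all genes the 2 member pools were close. Genes with at least 100 UMIs over both libraries were compared as log2((KO CPM + 10)/(WT CPM + 10)), a scale that understates the change of low genes. Of 7798 such genes, 59 (0.757%) were at least 1.5-fold higher in Lyve1 KO and 57 (0.731%) at least 1.5-fold lower. Their median log2 ratio was -0.0045, 90% of genes lay between -0.30 and 0.29, and only 20 passed 2-fold. Among the 59 higher genes, 48 were higher in both female and male cells, and 23 passed 1.5-fold in each. Among the 57 lower genes the counts were 52 and 25. Female and male cells make up most of the sums by which these genes were chosen. They come from the same 2 libraries, so these counts are a description and not a separate check.

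**Figure D3:**
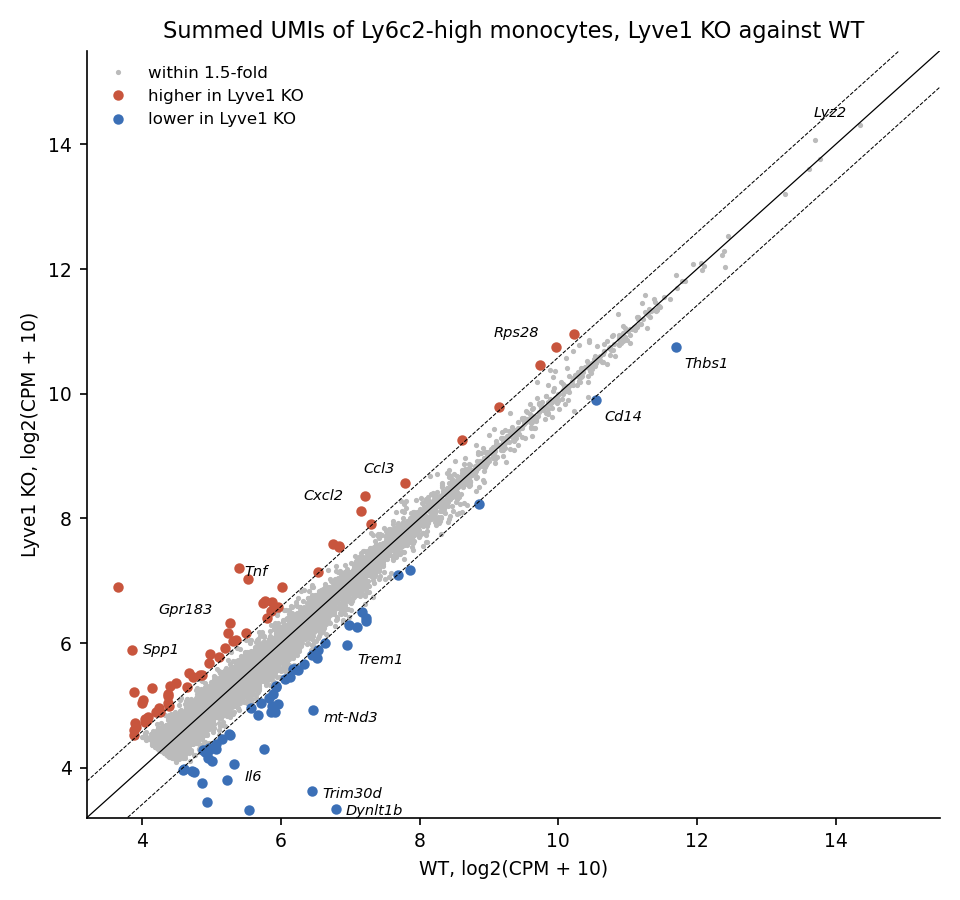
Each point is 1 of 7798 genes, with its level in summed UMIs of WT members (x axis) and of Lyve1 KO members (y axis), both as log2(CPM + 10); the solid line is equality and dashed lines are 1.5-fold. Red points (59) were higher and blue points (57) lower in Lyve1 KO, and the other genes lie between the dashed lines.

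Thrombospondin 1 (Thbs1, chr2:118111876-118127133), a secreted matrix protein that activates latent TGF-beta and binds CD36 and CD47, had the largest log2 ratio of the genes that averaged over 1000 CPM. Members held 3298 CPM in WT (3247 to 3351) and 1705 in Lyve1 KO (1672 to 1738), a log2 ratio of -0.95. The median member had 45 Thbs1 UMIs in WT and 14 in Lyve1 KO, with maxima of 465 and 319, so the 2 sets of cells overlapped over most of their range. At the fixed depth, 90.6% of WT (84.9 to 94.6) and 73.2% of Lyve1 KO members (66.5 to 79.1) had a Thbs1 UMI, a difference of -17.4 points (-24.8 to -9.51), against 0.459% and 0.974% of B and T cells. Female cells gave -1.32 and male cells -0.72. Thbs1 was also lower in Lyve1 KO in non-classical monocytes (849 and 379 CPM) and neutrophils (4144 and 2581 CPM), and higher in CCR2- macrophages (161 and 404 CPM).

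Receptors of bacterial sensing and myeloid activation went both ways, and the 2 past 1.5-fold were lower. The lipopolysaccharide co-receptor Cd14 was at 1488 and 943 CPM (log2 ratio -0.65), and the median member had 15 and 7.5 UMIs. Trem1, a receptor that amplifies inflammatory signals in monocytes and neutrophils, was at 114 and 52.5 CPM (-0.99), with UMIs in 79 and 81 cells. For Cd14 the log2 ratio was -0.89 in female and -0.34 in male cells, the latter short of 1.5-fold. For Trem1 it was -1.73 and -0.81. Both genes were also lower in Lyve1 KO in other cells. Cd14 was at 474 and 392 CPM in non-classical monocytes and 1310 and 614 CPM in neutrophils. Trem1 was at 174 and 114 CPM and at 1039 and 732 CPM in the same groups. Tlr2 was at 383 and 267 CPM (-0.51) and the C-type lectins Clec4e and Clec4d at 329 and 235 (-0.46) and 161 and 121 CPM (-0.38), each short of 1.5-fold. All 3 were also lower in Lyve1 KO in non-classical monocytes and neutrophils, with Tlr2 at 241 and 182 and at 444 and 258 CPM. In CCR2+ macrophages Tlr2 was lower (324 and 240 CPM) and the lectins were higher. In CCR2- macrophages Tlr2 (262 and 298 CPM) and the lectins were higher. At the fixed depth fewer Lyve1 KO members had a UMI of Clec4e (73.6% and 61.0%, difference -12.6 points, -21.9 to -2.85) and Clec4d (66.0% and 50.2%, -15.8 points, -25.5 to -5.56). In thinned B and T cells the shares were 0.459% and 0.649% for Clec4d, and no higher for Clec4e. For both lectins the lower level was seen in female cells (-0.76 and -0.83) and not in male cells (0.08 and -0.06). Of 28 compared genes for pattern recognition and Fc receptors, 2 passed 1.5-fold, both lower (Cd14 and Trem1), and the list's median was -0.02. Clec4n (56.1 and 83.1 CPM, 0.49), Clec5a (34.6 and 47.5 CPM, 0.37), Fcgr2b (210 and 264 CPM, 0.32) and Myd88 (126 and 150 CPM, 0.23) lay on the higher side, each short of 1.5-fold.

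Some of these genes went together from cell to cell within each library. Over members thinned to the same depth (159 WT and 205 Lyve1 KO), Spearman's rho between Thbs1 and Cd14 was 0.59 in WT and 0.59 in Lyve1 KO. It was 0.50 and 0.55 with Plaur, the urokinase receptor, 0.58 and 0.46 with Tlr2, and 0.40 and 0.32 with Trem1. With Klf2 it was -0.31 and -0.29, and with Ly6c2 it was near 0, at -0.01 and 0.04. The cells of a library share its RNA background and its 5 hearts, and these pairs were picked after values were seen, so the coefficients are a description.

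**Figure D4:**
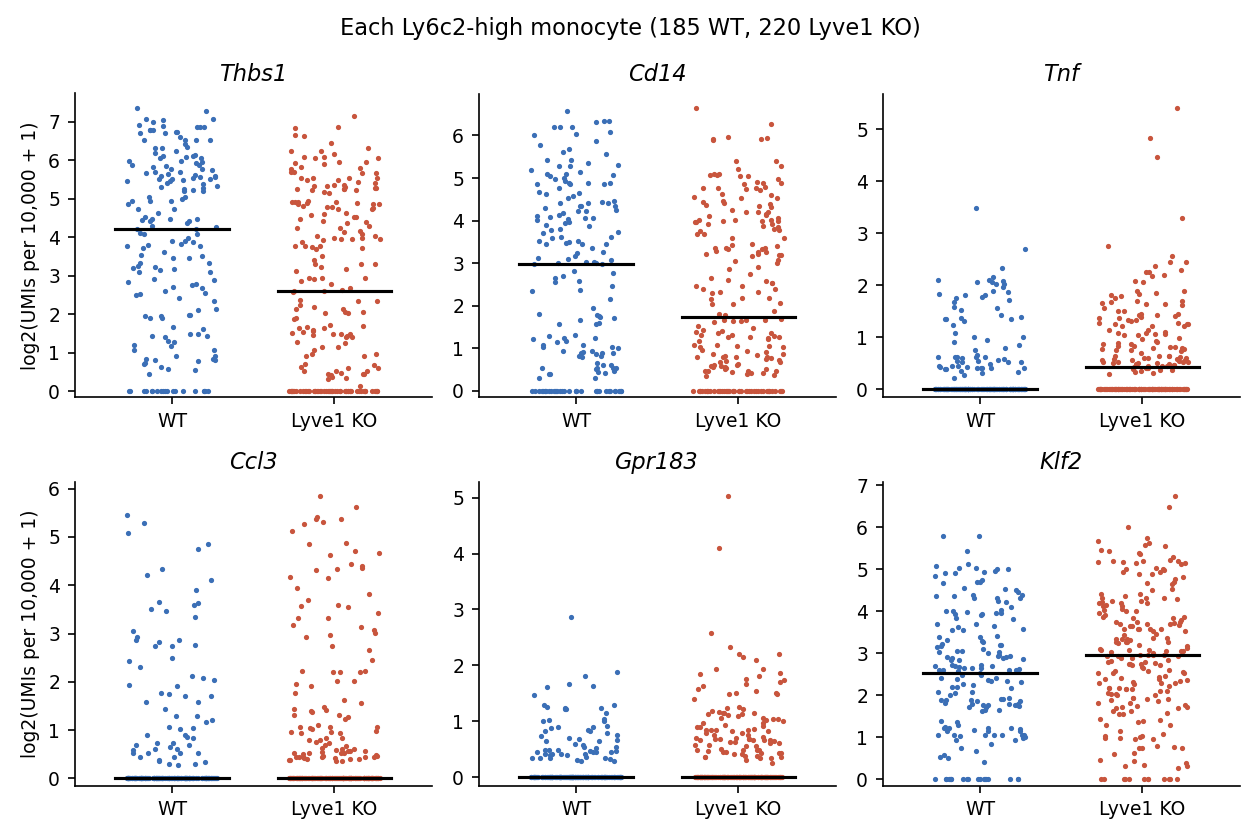
Each point is 1 Ly6c2-high monocyte, as log2(UMIs per 10000 + 1), in the WT (blue) and Lyve1 KO (red) library, with horizontal jitter; black lines are medians. Thbs1 and Cd14 medians were lower in Lyve1 KO, the Tnf median was above 0 in Lyve1 KO alone, and values of the 2 libraries overlapped for all 6 genes.

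Inflammatory cytokines and mediators went both ways. Of 21 compared genes, 5 were at least 1.5-fold higher in Lyve1 KO (among them Tnf, Ccl3, Cxcl2 and Alox5) and 4 lower (Il6, Ccl2, Osm and Il1r2), with a list median of 0.05. Over all 7798 compared genes the shares were 0.757% higher and 0.731% lower. The count of every list, before and below, is to be read beside these shares. The summed level of the list was equal, at 4586 and 4590 CPM. Tnf, the cytokine TNF, was at 54.8 (48.3 to 61.9) and 110 CPM (102 to 118), a log2 ratio of 0.89, with 0.81 in female and 1.18 in male cells. It had a UMI in 72 of 185 and 120 of 220 members. A female Lyve1 KO member held 94 of the 661 Tnf UMIs of that library. Without the highest cell of each library the ratio over all members was 0.80, and the ratios by sex were not recomputed. At the fixed depth the shares were 32.7% and 47.3%, a difference of 14.6 points (4.45 to 24.2), against 28.4% and 32.8% in B and T cells, which can make TNF themselves. The B and T cells had a median of 13644 and 14262 UMIs, and those under the fixed depth were left out (387 of 605 in WT and 560 of 868 in Lyve1 KO). The chemokine Ccl3 was at 211 and 368 CPM (0.78), with shares of 30.8% and 44.4% (difference 13.6 points, 3.51 to 23.1) and a background of 1.83% and 3.25%. Its log2 ratio was 0.30 in female and 1.18 in male cells.

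Most other myeloid cells of the same libraries lay on the opposite side for Tnf and Ccl3, with 1 exception. Tnf was at 210 and 171 CPM in non-classical monocytes and 322 and 136 CPM in neutrophils, and at 209 and 115 CPM in CCR2+ and 330 and 248 CPM in CCR2- macrophages. Ccl3 was at 350 and 313 CPM in non-classical monocytes and 532 and 108 CPM in neutrophils. It was at 347 and 201 CPM in CCR2+ macrophages, but at 441 and 464 CPM in CCR2- macrophages, the exception. No difference between groups of cells was tested.

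Cxcl2, Alox5 and Il6 were found in fewer members than Tnf and Ccl3. Cxcl2, a neutrophil chemoattractant, was at 133 and 270 CPM (0.97), but in 40 WT and 35 Lyve1 KO members, and 1 Lyve1 KO cell held 475 of 1623 UMIs; without the highest cell of each library the ratio was 0.69. Alox5, a lipoxygenase of leukotriene synthesis, was at 7.04 and 18.1 CPM in 24 and 50 members, with a log2 ratio of 0.67 in female and 0.24 in male cells. Over all members its ratio was 0.72, but 0.57 without the highest cell of each library, short of 1.5-fold. Il6 was at 30.1 and 6.65 CPM (-1.27) in 20 and 16 members, and 19 WT members held 99.3% of its UMIs. Il1r2, the interleukin-1 decoy receptor, had a UMI in 28.3% and 14.1% of thinned members (difference -14.2 points, -22.7 to -5.74), against 3.67% and 3.90% of B and T cells. Its log2 ratio of -0.71 turned to 0.22 with barcodes thinned before the rule. Il1r2 was also lower in Lyve1 KO in non-classical monocytes (92.6 and 56.0 CPM), neutrophils (1368 and 852) and CCR2+ macrophages (13.5 and 7.94). It was at 4.10 and 4.35 CPM in CCR2- macrophages. Interleukin-1beta itself (Il1b) was at 1022 and 855 CPM (-0.26), under 1.5-fold.

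The promoters of these mediators are where NF-kappaB and AP-1, factors of the inflammatory response, are best known to act, so the 250 bases before the RefSeq start (GRCm38.p6) were searched on both strands for the kappaB consensus and for the AP-1 letters TGANTCA. Of the 9 genes, 6 had an entry. Matches stood in capitals in 2 of them: a kappaB match in Cxcl2, which was higher in Lyve1 KO, and both motifs in Il6, which was lower. Tnf, Ccl3, Alox5 and Il1r2 had neither in this window. Of 32851 promoters, 7.25% hold the kappaB consensus and 6.75% the AP-1 letters over the same 250 bases. The 3 sequences are shown for the contrast between a gene with neither motif, one with kappaB alone and one with both; positions are chr17:35202008-35202257 (minus strand), chr5:90903649-90903898 (plus strand) and chr5:30012864-30013113 (plus strand).
Tnf: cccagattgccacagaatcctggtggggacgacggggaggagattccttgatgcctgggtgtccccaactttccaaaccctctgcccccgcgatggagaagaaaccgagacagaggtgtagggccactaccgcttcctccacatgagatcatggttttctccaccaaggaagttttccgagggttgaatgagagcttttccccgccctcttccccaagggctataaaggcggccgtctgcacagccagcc
Cxcl2: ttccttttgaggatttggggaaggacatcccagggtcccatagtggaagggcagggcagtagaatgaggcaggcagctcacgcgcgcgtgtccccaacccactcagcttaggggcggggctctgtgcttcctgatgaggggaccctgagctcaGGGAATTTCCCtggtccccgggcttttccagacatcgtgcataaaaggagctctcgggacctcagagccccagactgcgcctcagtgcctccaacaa
Il6: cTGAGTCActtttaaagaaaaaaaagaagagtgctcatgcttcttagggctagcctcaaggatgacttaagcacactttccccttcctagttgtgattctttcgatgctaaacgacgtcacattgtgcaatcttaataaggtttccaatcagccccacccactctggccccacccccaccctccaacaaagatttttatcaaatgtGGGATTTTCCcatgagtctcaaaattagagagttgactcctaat
A match is a run of letters and not a bound site, and the motifs did not separate the higher from the lower genes.

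Gpr183, the oxysterol receptor that guides the movement of leukocytes, was at 28.4 (23.8 to 33.6) and 70.4 CPM (63.9 to 77.5) in members. Its log2 ratio was 1.07, and 1.14 in both female and male cells. A male Lyve1 KO member held 87 of the 424 Gpr183 UMIs of that library. Without the highest cell of each library the ratio over all members was 0.88, and the ratios by sex were not recomputed. At the fixed depth 25.2% and 40% of members had a UMI (difference 14.8 points, 5.11 to 24.0). B and T cells, which use Gpr183, gave 43.6% and 65.9%, although its level in B cells was 167 and 165 CPM. Klf2, a transcription factor of leukocyte quiescence, was at 815 and 1151 CPM (0.49), short of 1.5-fold, with a median of 11 and 16 UMIs per member. Of 19 compared immediate early genes, 1 was higher (Egr2, in 16 and 22 cells) and none lower, with a median of 0.12. Without the highest cell of each library Egr2 was at 0.545, short of 1.5-fold. Of 24 compared myeloid transcription factors, 1 was higher (Bhlhe40, at 0.69, but 0.55 without the highest cell of each library and -0.20 with barcodes thinned before the rule) and 1 lower (Runx3); Spi1, Cebpb and Zeb2, which set monocyte identity, were at log2 ratios of 0.04, 0.05 and -0.002.

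Genes for entry into tissue lay within 1.5-fold over all members. Of 13 compared chemoattractant receptors none passed 1.5-fold, with a median of -0.02. Cxcr4, which holds cells in the marrow, was at 389 and 426 CPM. Ccr2, used to choose the members, was at 1118 and 1102. The receptors Ccr1 and Ltb4r1, for CCL3 and leukotriene B4, had a UMI in fewer Lyve1 KO members (76.7% and 64.9%, difference -11.9 points, -20.8 to -2.38; 97.5% and 87.8%, -9.68 points, -15.1 to -4.33), with log2 ratios of -0.34 and -0.21. The shares in B and T cells were 6.88% and 6.17% for Ccr1 and 2.29% and 6.49% for Ltb4r1. Ccr1 was at -0.79 in female cells, past 1.5-fold, and at 0.03 in male cells, and Ltb4r1 at -0.12 and -0.39. Of 17 compared adhesion genes and integrins none passed, with a median of -0.001; Itgam was at 478 and 425 CPM and Itga4, the alpha-4 integrin, at 637 and 699. Of 22 classical monocyte genes, the 2 past 1.5-fold were Thbs1 and Cd14, both lower, and the median was -0.14. Of 11 compared non-classical monocyte genes, 1 passed (Eno3, a muscle-type enolase, higher at 1.53 in female but -0.14 in male cells) and the median was 0.21. Of 15 compared complement and coagulation genes none passed, and the median was -0.20. Of 18 genes for hyaluronan receptors and enzymes, 6 had enough UMIs to compare and none passed, with a median of -0.21.

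Vcan lay below 1.5-fold. It was at 403 (385 to 422) and 287 CPM (274 to 301), a log2 ratio of -0.48, but it was -0.98 in female and 0.07 in male cells, so the lower level was seen in female cells only. Of 18 compared growth factor and matrix genes, Thbs1 was lower and Spp1 higher past 1.5-fold. Spp1 (osteopontin, secreted by macrophages of injured tissue) was found in 5 and 9 members only, and 1 Lyve1 KO cell held 212 of 298 UMIs.

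Of 28 compared interferon-stimulated genes, 4 were lower (Ifit1, Ifit2, Ifit3b and Ly6a) and none higher, with a median of -0.13. Single cells carried these 4: 1 WT member held 128 of 235 Ifit2 UMIs, and without the highest cell of each library no gene of the 4 passed. The most abundant genes of the list were Ifitm3, at 3356 and 3313 CPM, Ly6e, at 1893 and 1900 CPM, and Ifi27l2a, at 937 and 1330 CPM. Ifi27l2a had a log2 ratio of 0.50, with 0.06 in female and 1.08 in male cells, so it was past 1.5-fold in male cells. Of 18 compared proliferation genes, Top2a alone passed (lower), and 71 of its 104 WT UMIs came from 1 cell. Of 23 compared genes of glycolysis and hypoxia none passed. Of 13 compared BCL2 family genes, Bcl2a1b alone passed, at 43.5 and 89.7 CPM (0.90). It fell short of 1.5-fold with at least 10 Ly6c2 UMIs and with barcodes thinned before the rule. It is 1 of a family of near-identical copies whose reads the counting could split, with Bcl2a1d at 47.8 and 68.1 CPM (0.43).

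Members differed among themselves along the Ly6c2 range, and for several genes the lowest and highest terciles stood in the same order in both libraries. Thinned members were ranked by Ly6c2 and divided into terciles of 53 cells in WT and 68 or 69 in Lyve1 KO. F13a1 was at 417 CPM in the lowest and 1002 in the highest tercile in WT, and at 287 and 822 in Lyve1 KO. Genes of non-classical monocytes ran the other way. Ace was at 128 and 26.6 CPM in WT and 167 and 35.7 in Lyve1 KO, Treml4 at 90.6 and 22.4 and at 106 and 19.1, and Cx3cr1 at 186 and 101 and at 234 and 93.0. Cd36, a scavenger receptor, was at 110, 46.9 and 5.33 CPM from the lowest to the highest tercile in WT and at 106, 13.3 and 3.32 in Lyve1 KO. The rule cut this range at its lower end, and the terciles were made on the gene that chose the members, so they are a description. S100a8 and Fn1 were also higher in the highest than in the lowest tercile in both libraries, but the place of the middle tercile differed. S100a8 was at 1025, 1215 and 1302 CPM from the lowest to the highest tercile in WT and at 1491, 459.5 and 1648 in Lyve1 KO. Fn1 was at 1382, 1280 and 2028 CPM and at 1034, 1569 and 1743. Few cells held most S100a8 UMIs. The 9 WT and 12 Lyve1 KO members with at least 10 S100a9 UMIs held 4594 of 6607 and 6156 of 8432 of them. The S100a8 values of the terciles thus depend on where these cells fell.

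Thbs1 did not follow that range, and its difference between libraries stood at every level of Ly6c2. In WT it was at 3069, 3749 and 2947 CPM from the lowest to the highest tercile. In Lyve1 KO it was at 1812, 2113 and 1695 CPM. Klf2 was higher in Lyve1 KO in each tercile, at 1088, 620 and 687 CPM in WT and 1498, 1059 and 882 in Lyve1 KO. Vcan was at 242, 293 and 618 CPM in WT and 176, 264 and 338 in Lyve1 KO, so most of its difference lay in the highest tercile.

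**Figure D5:**
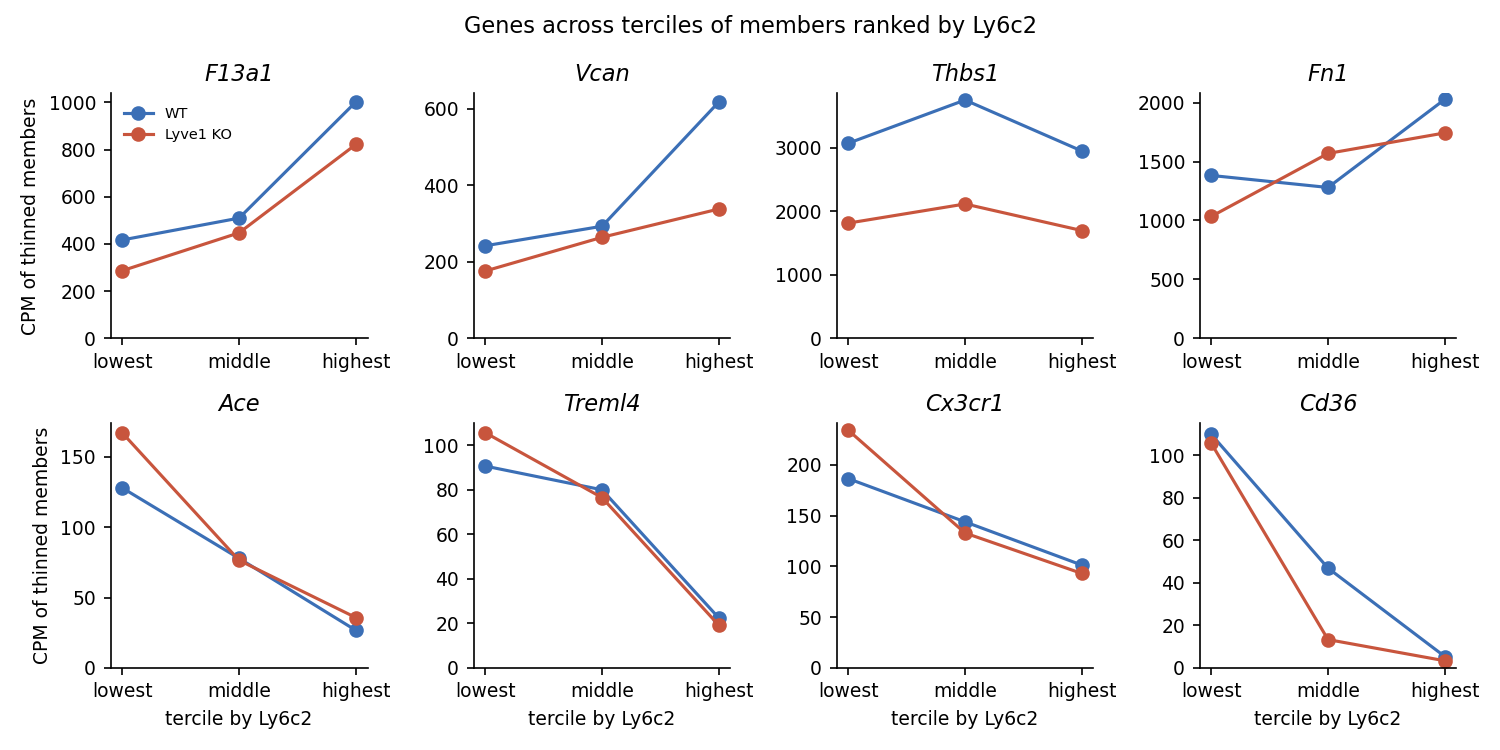
Level of 8 genes (CPM of members thinned to 17700 UMIs, y axis) in the lowest, middle and highest tercile of members ranked by Ly6c2 (x axis), in WT (blue) and Lyve1 KO (red). F13a1 and Vcan were highest in the highest tercile in both libraries, Ace, Treml4, Cx3cr1 and Cd36 were lowest there, and Thbs1 was lower in Lyve1 KO than in WT in every tercile.

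A few members carried the genes of another cell type. Major histocompatibility class II genes, which present antigen and are high in dendritic cells, were nearly limited to single cells: 5 WT and 6 Lyve1 KO members with at least 10 H2-Aa, H2-Ab1 and H2-Eb1 UMIs held 99.3% and 99.1% of all such UMIs. All 5 WT cells were female, and 5 of the 6 Lyve1 KO cells were male and none female. Of the rest, 170 and 203 members had none. Of 10 compared class II and antigen presentation genes none passed 1.5-fold.

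The alarmin subunits S100a8 and S100a9, which are made together in neutrophils, were not found together in many members. S100a8 had a UMI in 124 and 125 members but S100a9 in 26 and 33, and 101 and 96 members had S100a8 with no S100a9 UMI. At least 10 S100a9 UMIs were found in 9 and 12 members.

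Some other neutrophil genes lay in few members too, but not all did. Cxcr4 had a UMI in 152 and 178 members, Stfa1 in 41 and 50, and Lcn2 in 40 and 29. Of 12 compared neutrophil genes, 4 were higher in Lyve1 KO past 1.5-fold (S100a9, Camp, Stfa2 and Retnlg) and 1 lower (Lcn2). Camp, an antimicrobial peptide of granules, had a UMI in 1 and 3 members, Retnlg in 1 and 5, and Stfa2 in 3 and 8. With the 14 WT and 18 Lyve1 KO members rich in S100a9 or class II UMIs left out, Stfa2 was at a log2 ratio of -0.072. S100a9 was then at -0.074, but members had been left out for their S100a9 UMIs, so this value decides nothing. The list's summed level was 3576 and 4125 CPM with S100a8 its most abundant gene, and Ly6g, which defines neutrophils, was at 0.853 and 0.831 CPM. Both Xist and Y-linked UMIs, as a barcode with a female and a male cell would hold, were found in 1 of the 9 WT and 4 of the 12 Lyve1 KO members with at least 10 S100a9 UMIs, against 3 of 185 and 6 of 220 members in all. The barcodes with the highest doublet scores included 1 WT and 10 Lyve1 KO members.

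Markers of other cells differed in how much of them members held. The 15 cardiomyocyte genes summed to 3.41 and 5.32 CPM (most abundant Myh6, with Myh7, Myl7, Nppa and Ckm at 0), the 10 T cell genes to 0.853 and 5.48 CPM (Trac at 0, and Cd3e at 0, which the rule limited), the 9 natural killer genes to 0.427 and 0.997 CPM and the 8 mast cell genes to 0.213 and 1.33 CPM. Platelet genes summed to 1.07 and 3.99 CPM. B cell genes summed to 75.9 and 85.2 CPM, of which Ighm took 40.5 and 48.5, and fibroblast genes to 150 and 142 CPM, of which Gsn took 147 and 141 with Col1a1, Lum and Pdgfra at 0. Dendritic cell genes summed to 205 and 215 CPM, of which Bst2, an interferon-stimulated gene, took 177 and 185, and Siglech, which the rule limited, was at 0. Endothelial genes summed to 42.5 and 47.2 CPM, mostly Flt1, with Tek and Cldn5 at 0. The 8 erythroid genes differed, at 29.7 and 3.32 CPM, mostly Hbb-bs with 96 and 6 UMIs.

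The 3 genes with the lowest log2 ratios, Dynlt1b, Trim30d and Trim12a, were also lower in Lyve1 KO in the 6 comparison groups. Dynlt1b, a dynein light chain gene (chr17:6430112-6436296), was at 101 CPM in 148 WT members and at 1 UMI in Lyve1 KO. Trim30d (chr7:104470014-104507849) was at 77.0 and 2.33 CPM and Trim12a (chr7:104299894-104315466) at 36.7 CPM and 0 UMIs, which is at least 73.6-fold lower against a floor of 3 counts. B cells gave 53.9 and 0 CPM for Dynlt1b, 39.7 and 0 for Trim30d and 89.2 and 0.117 for Trim12a. Trim30d and Trim12a are members of families of close copies, so their counts depend on how reads were placed. Dmkn (dermokine, a secreted protein first described in skin) was at 27.5 and 3.99 CPM in members, in 18 and 11 cells, a log2 ratio of -1.42 that was -2.02 in female and -0.69 in male cells. In WT it was at 0.187 CPM or less in each comparison group. In Lyve1 KO it was at 3.97 CPM in CCR2+ macrophages, about the level in members, and at 2.89 CPM in neutrophils and 0.879 CPM or less in the others.

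Genes near the deleted locus passed the fold more often than others. Within 10 Mb of Lyve1 on chromosome 7, 10 of 76 compared genes (13.2%) were past 1.5-fold, 2 higher and 8 lower, against 1.26% of 7233 genes on other chromosomes. From 10 to 40 Mb the share was 4.59% of 218 genes, and on the rest of the chromosome 1.5% of 267. The 8 lower genes near Lyve1 included Trim30d, Trim12a and Nucb2, which was at 43.9 and 9.80 CPM. The erythroid gene Hbb-bs was also counted among them. The strain of the animals of each pool was not stated for these libraries, and its part in these values was not tested.

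Some short housekeeping transcripts differed alike in members and lymphocytes. The ribosomal protein genes Rps28, Rps29 and Rpl38, picked after their values were seen, were at 992 and 1709, 1188 and 1979, and 841 and 1399 CPM in members. In B cells they were at 1516 and 2516, 1570 and 2608, and 1345 and 2166 CPM. The mitochondrial gene mt-Nd3 was at 78.1 and 20.6 CPM in members and 209 and 52.5 in B cells. These values moved with the library in members and B cells alike. Klf2 went different ways in different cells. It was at 917 and 931 CPM in B cells, 474 and 1110 CPM in T cells and 1236 and 1925 CPM in neutrophils. In the groups most like the members it was lower in Lyve1 KO, at 1412 and 1276 CPM in non-classical monocytes, 658 and 502 in CCR2+ macrophages and 943 and 760 in CCR2- macrophages.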

How the data were processed

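Live CD45+ heart cells of 2 libraries, 1 per genotype, were analysed. The authors deposited raw UMI counts per gene and barcode from a 10x Genomics 5′ kit. The submitters' processing notes name Cell Ranger 8.0.1 and mm10. Counts were summed over members of each library (4687794 and 6019027 UMIs) and compared as CPM with a pseudocount of 10, for genes with at least 100 UMIs. With 1 library per genotype no test was made. Poisson, Clopper-Pearson and Newcombe 95% intervals cover counting error only. Shares of cells with a UMI used members thinned to 17700 UMIs, which left out 26 WT and 15 Lyve1 KO members. The members, gene lists and pairs of genes were chosen with earlier results of these data known. Named genes were those of the rule, the most abundant, the 10 highest and 10 lowest ratios with a UMI in at least 10 members, the genes most above each comparison group, and of each list the most abundant, those past 1.5-fold and those needed to describe it. Doublets were not removed. Scrublet scores (scanpy 1.11.5) were used in an alternative. Other alternatives changed the limits, pseudocount, denominator, sex and scaling (TMM, edgeR 4.0.16). Sex was read from Xist and Y-linked UMIs. Hearts within a pool were not separated here. The computation was tested on simulated data. Python 3.11.15, scipy 1.17.1 and R 4.3.3 were used. Mx1 and Clec7a were not analysed here, and some genes of the lists are not reported here.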

Additional observations from a re-analysis of the deposited data

Results flagged for a closer look

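Lyve1 KO and WT members differed in opposite directions in female and male cells for 3 of the named genes past 1.5-fold in each sex, and none of these differences was tested. For Ly6a, an interferon-stimulated gene, the log2 ratio was -2.46 in female and 1.25 in male cells, a gap of 3.71. For H2-Aa, a class II chain, it was -4.95 and 4.38, a gap of 9.34. For Cd74, the class II invariant chain, it was -2.25 and 1.93, a gap of 4.18. Of the class II UMIs, 99.3% lay in 5 WT members and 99.1% in 6 Lyve1 KO members, and 81 of 133 WT Ly6a UMIs lay in 1 cell.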

How the results depend on the processing

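The share difference of 2.47 points was 0.592 when barcodes were thinned before the rule, 0.924 over all barcodes, 7.12 over barcodes with 2 Csf1r UMIs, 1.01 in female cells and 1.51 without CCR2- macrophages in the total, the last chosen after seeing the data. The counts of higher (59) and lower (57) genes were 140 and 127 with a pseudocount of 1, 15 and 11 with 50, 3 and 4 by the mean of log values over cells, and 95 and 124 in female cells, with 95 lower in male cells. Of list genes, 14 higher became 8 with a pseudocount of 50, 0 by mean log values, 9 with 10 Ly6c2 UMIs, 8 without the highest Scrublet scores and 23 in male cells, and 16 lower became 4, 2, 31 (female) and 10 (male). With CCR2+ macrophages defined by a C1q sum of 20, folds were 12.29 and 15.17 for Plac8, 15.2 and 15.9 for Hp, and 46.61 and 23.38 for Vcan. Of 42 named genes past 1.5-fold, 31 kept their sign under 17 alternatives, and 3 (Thbs1, Trim30d and Dynlt1b) also stayed past it. Changes of pseudocount and of the minimum number of UMIs could not turn a sign, so the 17 are not separate checks of it. Signs turned with thinning before the rule for Il1r2 (0.22), Gm20186 (-0.23), Bhlhe40 (-0.20) and Ly6a (0.64). They turned in female cells for S100a9 (-2.59), Gm20186 (-0.42), Cstdc5 (-1.05), Stfa2 (-0.073) and Ifit2 (0.13), and in male cells for Eno3 (-0.14), Top2a (0.17) and Ly6a (1.25). They turned without high Scrublet scores (1 WT and 10 Lyve1 KO members) for S100a9 (-2.37) and Cstdc5 (-0.71), and without members rich in S100a9 or class II for S100a9 (-0.074), Stfa2 (-0.072) and Ly6a (0.32). The last filter acted on S100a9 UMIs, so its value for S100a9 decides nothing. The cause of these turns was not tested. Unthinned, the differences in cells with a UMI were -13.8 points for Thbs1, 15.6 for Tnf and 12.2 for Ccl3. No paired analysis was possible because each genotype is 1 library and the results come from no test.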

Other observations

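A few genes under the minimum of 100 UMIs were picked after their values were seen. They differed between the libraries in level or in the share of members with a UMI. Slc2a3, a glucose transporter, had a UMI in 3.14% of thinned WT members and 10.7% of Lyve1 KO members. Ccl5, a chemokine of T cells and monocytes, was at 15.2 and 0.332 CPM in members, with 53.5% of its WT UMIs in 1 cell. Kdr, an endothelial receptor for VEGF, was at 0 and 2.82 CPM. Stab2, a scavenger receptor for hyaluronan, was at 0.213 and 10.6 CPM, with 98.4% of its Lyve1 KO UMIs in 1 cell.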
